A study of Mus musculus with 2 samples.

Results

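The lysosomal genes described here are 34 genes that encode hydrolases, membrane proteins and regulators of the lysosome, out of 18724 genes in the table. They were chosen by symbol from what their products do, with earlier results of these data known. All 34 had a row, and all 34 passed the minimum of 10 normalised counts, taken as the mean of both libraries, below which a gene was not counted as measured. The data were 1 library of label-retaining and 1 library of non-retaining luminal cells, both freshly sorted from the prostate of mice aged 18 weeks that carry a histone 2B-GFP label, which is diluted as cells divide. The label-retaining cells were sorted as GFP positive and the non-retaining cells as GFP negative. The sources used here do not give the strain, the promoter behind the label, the length of the chase or the number of mice pooled.

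The lysosome is the acidic compartment in which cells break down proteins, glycans and lipids that arrive by endocytosis and autophagy. Most of its soluble enzymes are made in the endoplasmic reticulum, tagged with mannose 6-phosphate in the Golgi and carried on by receptors, while a proton pump, the V-ATPase, keeps the lumen acidic. Many lysosomal genes carry a short E-box in their promoters that the transcription factors TFEB and TFE3 bind, the so-called CLEAR element. In the prostate, luminal cells are known for releasing an acid phosphatase into the fluid.

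The promoters of 5 members are shown because they hold, or in the case of Neu1 lack, the E-box core CACGTG, of which TCACGTG and TCACGTGA are longer forms. Capitals mark each core, with the flanking T or A where present. Each stretch is the 250 bases before the RefSeq start site on GRCm38.p6, 5′ to 3′ on the strand of the gene.

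Glb1 (chr9:114400828-114401077, plus strand): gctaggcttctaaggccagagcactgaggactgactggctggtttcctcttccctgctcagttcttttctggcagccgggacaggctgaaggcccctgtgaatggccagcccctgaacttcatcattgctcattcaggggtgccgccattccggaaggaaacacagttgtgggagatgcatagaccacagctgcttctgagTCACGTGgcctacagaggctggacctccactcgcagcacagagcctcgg

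Neu1 (chr17:34931003-34931252, plus strand): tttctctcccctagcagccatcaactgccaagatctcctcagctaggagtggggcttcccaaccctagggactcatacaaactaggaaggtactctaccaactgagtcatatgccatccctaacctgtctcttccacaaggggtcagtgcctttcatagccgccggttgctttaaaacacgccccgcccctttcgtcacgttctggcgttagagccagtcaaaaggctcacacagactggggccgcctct

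Ctsd (chr7:142387828-142388077, minus strand): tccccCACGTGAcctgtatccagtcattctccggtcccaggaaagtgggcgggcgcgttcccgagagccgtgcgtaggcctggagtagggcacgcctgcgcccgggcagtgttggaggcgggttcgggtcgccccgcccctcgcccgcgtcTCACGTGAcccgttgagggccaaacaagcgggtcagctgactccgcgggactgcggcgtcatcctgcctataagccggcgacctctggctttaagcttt

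Lamp1 (chr8:13158911-13159160, plus strand): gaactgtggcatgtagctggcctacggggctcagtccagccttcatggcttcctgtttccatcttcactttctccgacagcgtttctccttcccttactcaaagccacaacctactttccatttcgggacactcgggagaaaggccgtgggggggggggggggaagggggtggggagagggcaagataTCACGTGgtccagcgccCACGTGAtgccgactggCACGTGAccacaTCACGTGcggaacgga

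Mcoln1 (chr8:3500269-3500518, plus strand): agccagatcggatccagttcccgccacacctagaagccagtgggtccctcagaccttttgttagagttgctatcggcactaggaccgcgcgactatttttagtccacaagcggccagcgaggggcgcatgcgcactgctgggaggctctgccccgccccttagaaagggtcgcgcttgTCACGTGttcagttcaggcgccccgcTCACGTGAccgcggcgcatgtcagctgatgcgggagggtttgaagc

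A promoter window of 250 bases before to 50 after a start site was found for 30 of the 34 members, in 36 windows, with Asah1, Ctsb, Ctsh and Npc1 unmatched. Windows were searched on both strands. The core CACGTG was in 10 of the 36 windows (27.8%), against 7.15% of all 32851 windows. TCACGTG was in 8 (22.2%) against 3.77%, and the palindrome TCACGTGA in 4 (11.1%) against 0.974%. The palindrome with a further G before and C after it was in 0 of the 36 windows and in 0.326% of all. These motifs lie inside each other, so the counts overlap. The 8 members with TCACGTG were Ctsa, Ctsd, Gaa, Gla, Glb1, Lamp1, Lgmn and Mcoln1, and Ctsf and Ctsl held the core alone. The RefSeq start used for Ctsl lies inside the GENCODE gene, as do the starts whose windows hold the core in Ctsa and Lgmn, and that of Scarb2, which holds no core. Other starts, such as those of Ctsd, Gla, Gaa and Mcoln1, also lie inside the gene, but nearer to its annotated start. Ctsa and Lgmn each have another window, nearer the start of the GENCODE gene, without the core. A member counted as holding a motif if any of its windows did. Counted from the start site, the core of Glb1 began at -48, the 4 cores of Lamp1 at -61, -45, -28 and -15, and those of Ctsd at -245 and -98. A match describes these letters in these windows and was not tested as a binding site.

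The label-retaining library held 50689229 reads over the genes of the table, and the non-retaining library 48334265. Values are normalised counts, which are reads divided by the size factor that the authors applied to each library. A log2 ratio is label-retaining over non-retaining, and its interval is an exact (Clopper-Pearson) 95% interval that covers counting error only. A gene was called higher or lower when it was at least 2-fold apart and its interval excluded equality. With 1 library per group no test between the groups was possible, so every statement compares these libraries and has no replicate check.

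Markers of luminal cells and of other cell types were counted in both libraries. Of all measured genes, 14.5% were called higher and 19.4% lower. Of 12 luminal markers 6 were called higher and 0 lower, at 5.34% of reads in label-retaining cells and 1.56% in non-retaining cells. Basal markers took 0.067% of reads in label-retaining cells and 0.829% in non-retaining cells, with all 11 measured called lower. For T and NK cells the shares were 0.00159% in label-retaining cells and 0.0691% in non-retaining cells, all 13 markers were called lower, and Gzma was at 0 reads in label-retaining cells. Fibroblast markers had 2 of 10 higher and 5 lower, smooth muscle markers 0 and 10 of 10, and endothelial markers 0 and 7 of 10. The most abundant markers were Tgm4 for luminal, Tpm2 for smooth muscle and Cd14 for macrophage lists, and for fibroblasts and endothelium Col3a1 and Pecam1 in label-retaining cells and Dcn and Lyve1 in non-retaining cells. All 8 seminal vesicle genes, led by Svs2, were called higher, with Svs3a and Svs6 at 0 reads in non-retaining cells. In bulk RNA, fewer cells of a type and less RNA per cell cannot be told apart.

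Of the 34 lysosomal genes 5 were called higher (14.7%), where 14.5% of all 17183 measured genes were, and 2 were called lower (5.88%), where 19.4% of all were. The share called higher was near the background, and that called lower was below it. The median log2 ratio of the members was 0.09, with a range of -1.41 to 1.79, against -0.01 for all measured genes. Counting error was small beside these differences, since 17 members had an interval above 0, 15 an interval below 0, and 2, Ids and Tfe3, an interval that held 0. Among the 6251 measured genes with at least 1000 normalised counts, a comparison added because 27 members reach that level, 13.3% were called higher and 13.4% lower, against 5 and 1 of the 27 members. Their own median was 0.38 and that of the 6251 genes 0.06. The summed normalised counts of the 34 members were 180108 in label-retaining cells, against 168398 in non-retaining cells. As a share of reads the order was the other way, 0.356% in label-retaining cells and 0.383% in non-retaining cells. A 1.5-fold rule called 15 members higher and 8 lower (24.2% and 26.8% of all genes), and a 4-fold rule called 0 and 0 (4.32% and 9.64%).

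Within the group, enzymes that cut glycans lay on the high side and most cysteine cathepsins on the low side, as the plot of ratios by role shows. The genes called higher were Glb1, Neu1, Hexa, Gusb and Acp2, and those called lower were Ctsl and Ctss. Relative to all measured genes, Glb1 stood above 94.4% of them, Neu1 above 91.2%, Hexa above 90.1% and Gusb above 89.6%, while Ctsl stood above 14.2% and Ctss above 14.4%. This order holds whatever the size factors, because a change of factor moves each ratio by nearly the same amount. Scaled to total reads, every ratio moved down by 0.20, Acp2 was no longer called and Scarb2 was called lower, which made 4 higher (11.3% of all genes) and 3 lower (23.1%). Without the 20 most abundant genes of either library in the totals, 6 were higher (16.1%) and 2 lower (18.2%), with Man2b1 added. When the keratins of luminal cells, Krt8 and Krt18, set the scale, every ratio moved down by 0.76, and the split became 1 higher, Glb1, and 14 lower (5.59% and 39.9% of all genes). Under that scaling 9 members turned from positive to negative, namely Asah1, Ctsa, Ctsd, Gaa, Gla, Grn, Ids, Lamp1 and Mcoln1. The median of all measured genes was then -0.77.

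**Figure D1:**
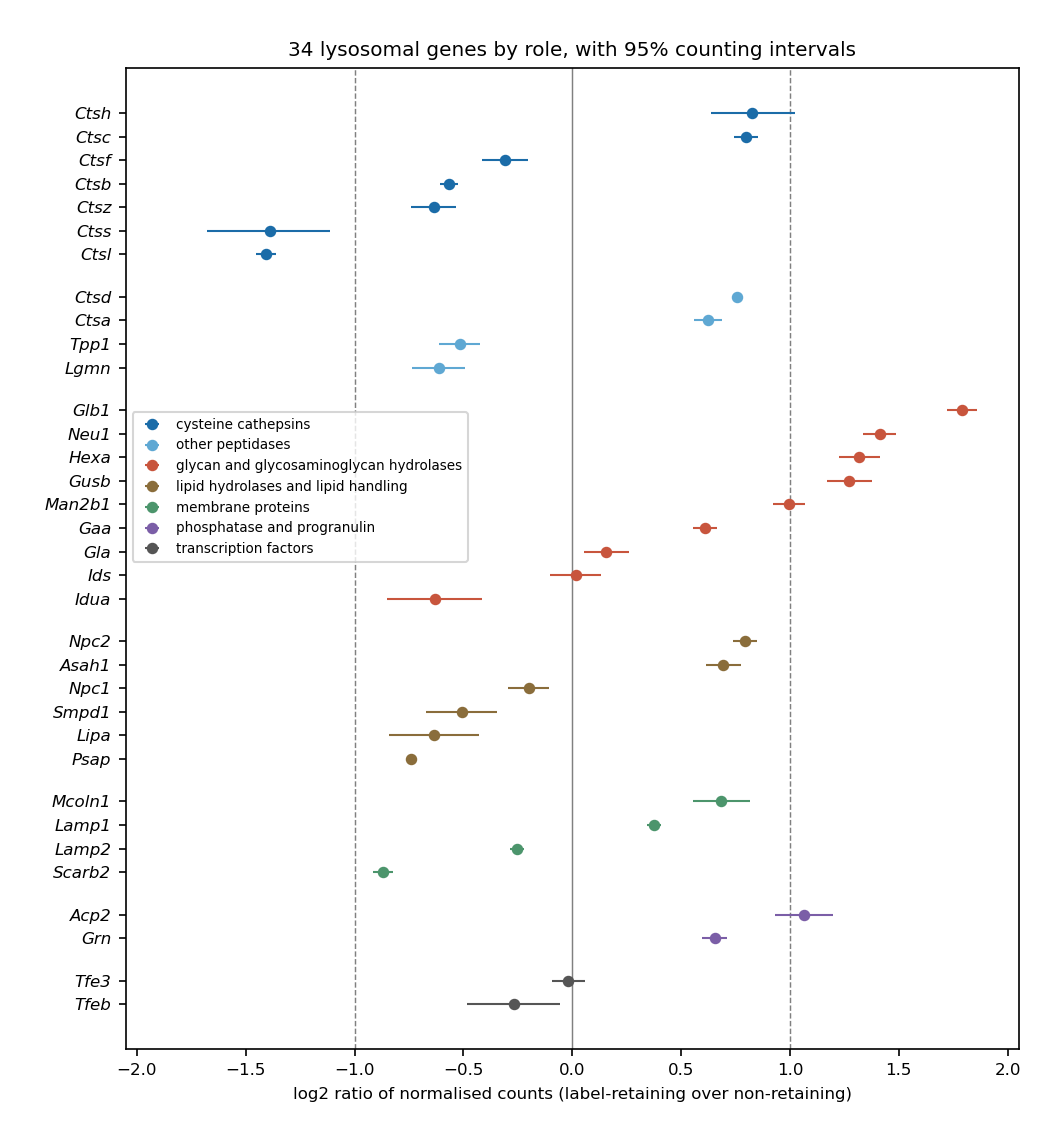
Log2 ratio of normalised counts, label-retaining over non-retaining library, for the 34 lysosomal genes in 7 role groups (1 library each). Bars are 95% counting intervals and dashed lines mark 2-fold. The glycan hydrolases reach 1.79 (Glb1), whereas Ctsl and Ctss lie at -1.41 and -1.39.

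The glycan and glycosaminoglycan hydrolases trim the sugar chains of glycoproteins, glycolipids and proteoglycans from their ends. Of 9 measured, 4 were called higher (44.4%, against 14.5% of all measured genes) and 0 lower (19.4% of all). The median log2 ratio was 0.99, and 8 of the 9 had a positive ratio, as had 8551 of all 17183 genes. Glb1, the lysosomal beta-galactosidase (ENSMUSG00000045594.9, chromosome 9, 114401076 to 114474898, plus strand, mm10), had 7327 normalised counts in label-retaining cells, against 2118 in non-retaining cells. It was the member farthest from equality, 3.46-fold higher (log2 ratio 1.79, interval 1.72 to 1.86). Its exons share 165 bases with Tmppe on the same strand, a gene with 144 label-retaining and 212 non-retaining reads.

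Neu1, the lysosomal sialidase (chromosome 17, 34931253 to 34935953, plus strand), had 4853 normalised counts in label-retaining cells, against 1824 in non-retaining cells, 2.66-fold higher (1.41, 1.34 to 1.49). Neu1 and Glb1 work in a complex with the product of Ctsa. Hexa, the alpha subunit of beta-hexosaminidase A, which degrades ganglioside GM2 (chromosome 9, 59539540 to 59565109, plus strand), had 3005 against 1205 (1.32, 1.22 to 1.41). Gusb, beta-glucuronidase (chromosome 5, 129989011 to 130003049, minus strand), had 2497 against 1033 (1.27, 1.17 to 1.38).

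Man2b1, the acid alpha-mannosidase, stood just under the 2-fold line with 4216 normalised counts in label-retaining cells, against 2116 in non-retaining cells (0.99, 0.92 to 1.07). It was called higher with factors computed by the median of ratios of these libraries. Gaa, which releases glucose from glycogen and is mutated in Pompe disease, had 6681 against 4378 (0.61, 0.56 to 0.66). Gla, alpha-galactosidase A, the Fabry disease enzyme, was nearer to equality with 1592 against 1427 (0.16, 0.06 to 0.26).

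Ids and Idua, which begin heparan and dermatan sulfate breakdown, had the lowest ratios of the 9. The interval of Ids overlapped that of Gla, however. Naglu, another enzyme of heparan sulfate but not a member, was called higher, as given below. Ids, iduronate 2-sulfatase, had 1129.6 normalised counts in label-retaining cells, against 1117 in non-retaining cells, a difference within counting error (0.02, -0.10 to 0.13). Idua, alpha-L-iduronidase, was on the other side of equality with 277 against 430.3 (-0.63, -0.85 to -0.42), and it had the lowest level per kilobase of exon of the 9 in both libraries. With the keratin scaling the 9 enzymes had 1 called higher, 1 lower and a median of 0.23, where all genes had 5.59% higher, 39.9% lower and a median of -0.77.

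The cysteine cathepsins are papain-like proteases that degrade proteins in the lumen and process antigens and hormones. Of 7 measured, 2 were called lower (28.6%, against 19.4% of all measured genes) and 0 higher (14.5% of all), and the median was -0.57. The 2 called lower are not far from the background. Ctsl, cathepsin L (ENSMUSG00000021477.8, chromosome 13, 64359337 to 64370890, minus strand), had 5151 normalised counts in label-retaining cells, against 13678 in non-retaining cells. It was 2.66-fold lower (-1.41, -1.45 to -1.36), the lowest ratio of all 34 members. A processed pseudogene on the same strand and an antisense transcript overlap its exons, so that some reads could have been split or dropped.

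Ctss, cathepsin S, which trims the invariant chain in antigen-presenting cells (chromosome 3, 95526786 to 95556403, plus strand), had 139.7 normalised counts in label-retaining cells, against 367 in non-retaining cells. It was 2.62-fold lower (-1.39, -1.68 to -1.11), and it had the fewest reads of any member, 140 in the label-retaining library. Markers of antigen presentation lay in the same direction, with all 9 measured called lower (19.4% of all genes). They took 0.00621% of reads in label-retaining cells and 0.027% in non-retaining cells. Cd74, the invariant chain gene itself, was at -1.80 (-1.87 to -1.72). Macrophage markers were mixed, with 4 of 13 measured called higher and 2 lower, where 14.5% and 19.4% of all genes were. They had 7 negative ratios and a median of -0.33. Their share was 0.00489% of reads in label-retaining cells and 0.00634% in non-retaining cells, Cd163 being at 0 reads in non-retaining cells. The part of other cell types in the values of Ctss and Ctsl was not tested.

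Ctsb, the cysteine cathepsin with the highest level per kilobase of exon in the label-retaining library, had 7773 normalised counts there and 11515 in the non-retaining library (-0.57, -0.61 to -0.53). Ctsz, a carboxypeptidase, had 1208 against 1878 (-0.64, -0.74 to -0.53) and Ctsf had 1289 against 1596 (-0.31, -0.41 to -0.20). None of these 3 reached 2-fold. Ctsc and Ctsh, which remove amino acids from the N-terminal end of proteins, were on the other side of equality. Ctsc, also the activator of granule proteases in leukocytes, had 6669.9 against 3833 (0.80, 0.74 to 0.86), and Ctsh had 577 against 325 (0.83, 0.64 to 1.02). Under the keratin scaling 5 of the 7 cathepsins were called lower and these 2 came to 0.04 and 0.07, where 39.9% of all genes were called lower.

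The other peptidases split evenly and none was called. Ctsd, cathepsin D, an aspartic protease, had the highest level per kilobase of exon among the members of the label-retaining library and 39606 normalised counts, against 23426 in the non-retaining library (0.76, 0.73 to 0.78). Under the keratin scaling it stood at -0.005, where the median of all measured genes was -0.77. A predicted gene on the same strand overlaps its exons in GENCODE M21. Ctsa, the carboxypeptidase that protects Glb1 and Neu1, had 4416 against 2866 (0.62, 0.56 to 0.69). Its exons share 495 bases with Pltp on the opposite strand, which had 372 label-retaining and 8060 non-retaining reads. Tpp1, the tripeptidyl peptidase mutated in a form of Batten disease, had 1533 against 2193 (-0.52, -0.61 to -0.42). Lgmn, legumain, which cuts after asparagine and matures several cathepsins, had 887 against 1356 (-0.61, -0.73 to -0.49).

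Genes of lipid breakdown and cholesterol export had 0 members called, 2 positive and 4 negative ratios, and a median of -0.35. Psap, the precursor of the saposins that present sphingolipids to their hydrolases, had 20305 normalised counts in label-retaining cells, against 33881 in non-retaining cells (-0.74, -0.76 to -0.71). It had the highest level per kilobase of exon among the members of the non-retaining library. Asah1, acid ceramidase, had 3153 against 1950.3 (0.69, 0.61 to 0.77). Smpd1, acid sphingomyelinase, which makes ceramide, had 501 against 712 (-0.51, -0.67 to -0.34). Lipa, the acid lipase that frees cholesterol from its esters, had 305 against 474 (-0.63, -0.84 to -0.43).

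The cholesterol export pair stood on opposite sides of equality. Npc2, the soluble carrier, had 6892 normalised counts in label-retaining cells, against 3978 in non-retaining cells (0.79, 0.74 to 0.85). Npc1, the membrane protein that takes cholesterol from it, had 1602 against 1840.2 (-0.20, -0.30 to -0.11). Npc1 shares 511 exon bases with Rmc1 on the opposite strand. Under the keratin scaling 3 of the 6 lipid genes were called lower, near the 39.9% of all genes.

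Membrane proteins lay on both sides of equality, with 2 positive and 2 negative ratios, and 0 of 4 were called. Lamp1, whose sugar-coated domain lines the inner face of the membrane, had 16286 normalised counts in label-retaining cells, against 12546 in non-retaining cells (0.38, 0.34 to 0.41). Its relative Lamp2, needed for fusion with autophagosomes and for chaperone-mediated autophagy, had 13187 against 15725 (-0.25, -0.29 to -0.22). Scarb2, which encodes the membrane protein LIMP-2, had 5691 against 10386 (-0.87, -0.91 to -0.82), the lowest ratio outside the cathepsins. Mcoln1, the calcium channel TRPML1, had 1157 against 719.5 (0.68, 0.55 to 0.82).

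Of the remaining members, Acp2, a lysosomal acid phosphatase (chromosome 2, 91202885 to 91214098, plus strand), was called higher with 1369 normalised counts in label-retaining cells, against 655 in non-retaining cells (2.09-fold, 1.06, 0.93 to 1.20). Its interval reached below 2-fold, and 652 of its exon bases overlap Ddb2 on the opposite strand. Grn, progranulin, a secreted protein that is cut into granulins in the lysosome, had 5718 against 3633 (0.65, 0.60 to 0.71). The regulators were nearly level. Tfeb had 316 against 381 (-0.27, -0.48 to -0.05) and Tfe3 had 2800.1 against 2835 (-0.02, -0.09 to 0.06). The nuclear location of these factors, which controls their activity, is not measured by RNA.

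**Figure D2:**
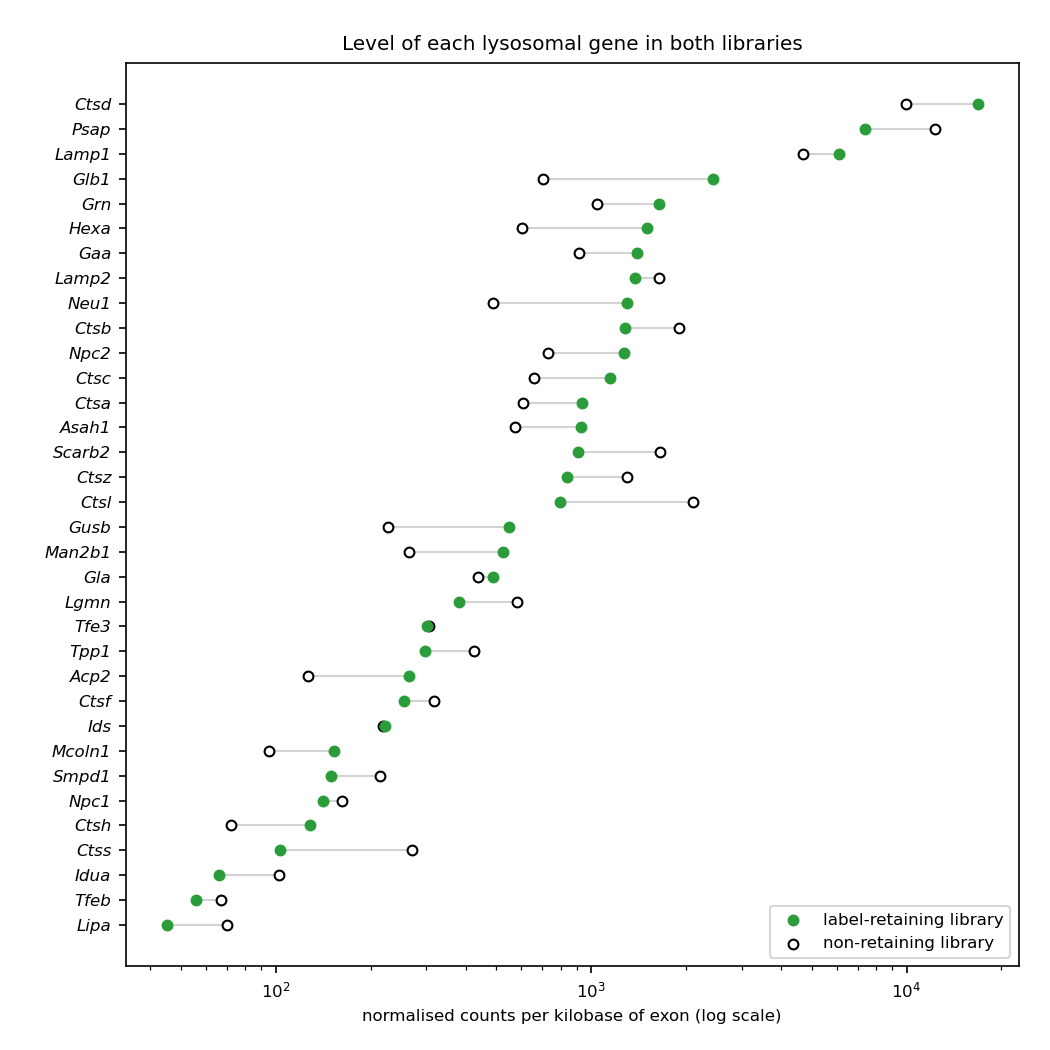
Normalised counts per kilobase of exon (log axis) of the 34 members in the label-retaining library (filled) and the non-retaining library (open), ordered by the label-retaining level. Ctsd leads with 16847 and Glb1 stands at 2436 in label-retaining cells and 704 in non-retaining cells.

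Levels per kilobase of exon ordered the members within each library. In the label-retaining library the top 5 were Ctsd, Psap, Lamp1, Glb1 and Grn, and in the non-retaining library they were Psap, Ctsd, Lamp1, Ctsl and Ctsb, so that 3 were shared. Ctsd had 16847 normalised counts per kilobase in the label-retaining library and ranked 91 of all measured genes, against 9964 and rank 177 in the non-retaining library. Psap had 7400 per kilobase and rank 196 in the label-retaining library, against 12347 and rank 140 in the non-retaining library. The rank of Glb1 was 679 in label-retaining cells, against 2492 in non-retaining cells, and that of Ctsl was 2336 in label-retaining cells and 783 in non-retaining cells. The lowest level in the label-retaining library was that of Lipa, with 45.04 per kilobase, and in the non-retaining library that of Tfeb, with 67.2. Exon lengths are those of the merged annotated exons of each gene and count every annotated isoform.

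Ratios between 2 genes of the same library do not depend on the size factors. They were computed for 10 pairs, chosen after the values were seen because their products work together or are related, so their differences are a description. In the complex that Ctsa protects, both enzymes stood higher relative to Ctsa in the label-retaining library. Glb1 over Ctsa was 2.60 per kilobase there and 1.2 in the non-retaining library (log2 difference 1.17, interval 1.07 to 1.26), and Neu1 over Ctsa was 1.39 against 0.804 (0.79, 0.69 to 0.89). Lamp1 over Lamp2 was 4.41 against 2.85 (0.63, 0.58 to 0.68), and Ctsd over Psap was 2.28 against 0.807 (1.5, 1.46 to 1.53). In the other direction, Ctsl over Ctsb was 0.618 in label-retaining cells, against 1.11 in non-retaining cells (-0.84, -0.90 to -0.78), and Ctsl over Cst3, a secreted inhibitor of cysteine cathepsins, was 0.0556 against 0.188 (-1.75, -1.81 to -1.70). Npc1 over Npc2 was 0.112 against 0.222 (-0.99, -1.10 to -0.88). The pair of transcription factors differed least, with Tfeb over Tfe3 at 0.185 against 0.220 (-0.25, -0.47 to -0.03).

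**Figure D3:**
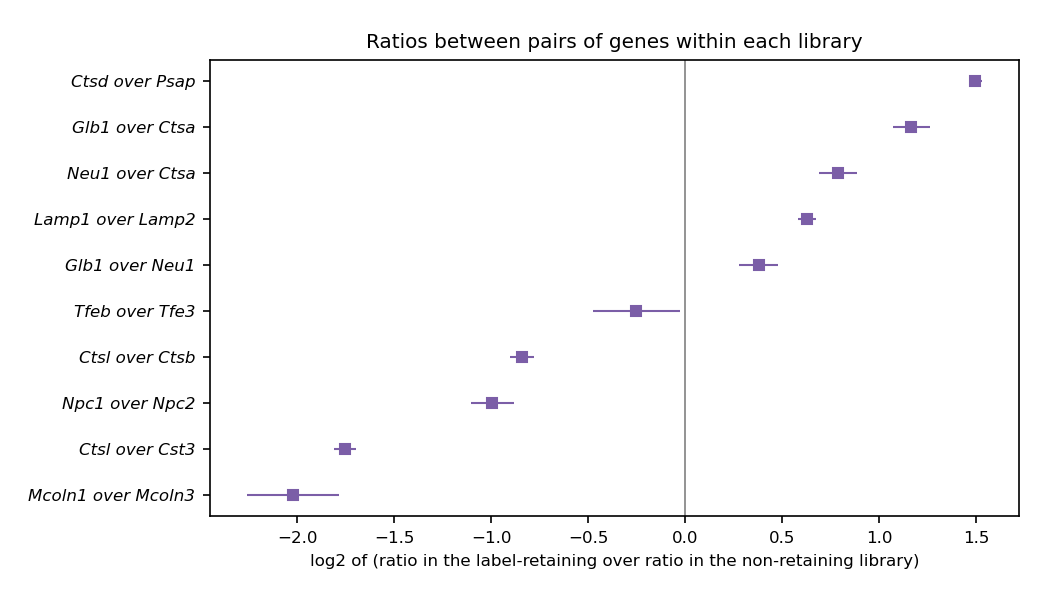
Log2 of the ratio of 2 genes in the label-retaining library over the same ratio in the non-retaining library, for 10 pairs, with 95% counting intervals. Values right of 0 mean that the first gene of the pair is higher relative to the second in the label-retaining library, as for Ctsd over Psap (1.5), and values left of 0 the opposite, as for Mcoln1 over Mcoln3 (-2.02).

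Other soluble hydrolases spread in both directions, as the members did. Of 39 measured, 7 were called higher (17.9%, against 14.5% of all measured genes) and 6 lower (15.4%, against 19.4%), shares near the background, and the median was 0.07. Naglu, which removes N-acetylglucosamine from heparan sulfate, had 2434 normalised counts in label-retaining cells, against 828 in non-retaining cells (1.56, 1.45 to 1.67). Fuca1, the lysosomal fucosidase, had 12004 against 4510 (1.41, 1.36 to 1.46), and Creg1, a lysosomal glycoprotein, had 5065 against 2093 (1.27, 1.20 to 1.35). Ppt1, the palmitoyl-protein thioesterase and the most abundant gene of this list on the mean of both libraries, had 11614 against 4946 (1.23, 1.19 to 1.28).

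The lower genes of that list included one of lymphocytes. Ctsw, a cathepsin of cytotoxic T and NK cells, had 42.9 normalised counts in label-retaining cells, against 1022 in non-retaining cells (-4.56, -5.05 to -4.13). Gm2a, the activator that presents ganglioside GM2 to hexosaminidase, had 853 against 1960.3 (-1.20, -1.32 to -1.09), and Prcp, a serine carboxypeptidase, had 195 against 468 (-1.26, -1.51 to -1.02). Laptm5 and Cst7 are not of that list but of the lists of other membrane proteins and cystatins. Laptm5, a lysosomal membrane protein of leukocytes, had 193.6 against 3665 (-4.24, -4.46 to -4.03). Cst7, cystatin F, which inhibits cathepsins in NK and T cells, had 2.00 against 99.2 (-5.32, -8.70 to -3.75, from 2 label-retaining and 109 non-retaining reads). Il2rb, the most abundant T and NK cell marker of both libraries, had 347 against 11509 (-5.05, -5.21 to -4.90). The part of these cells in the lower hydrolases was not tested. With total-read scaling the other hydrolases split into 4 higher and 11 lower (11.3% and 23.1% of all genes), and with the keratin scaling into 0 and 15 (5.59% and 39.9%).

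The V-ATPase had most of its subunits on the high side. Of 23 measured, 6 were called higher (26.1%, against 14.5% of all measured genes) and 0 lower (19.4% of all). Their median was 0.54, against -0.01 for all genes, and 19 had a positive ratio. Atp6v1c2, a C subunit isoform of epithelia and the most abundant gene of the list, had 14381 normalised counts in label-retaining cells, against 2554 in non-retaining cells (2.49, 2.43 to 2.55). Atp6v0a1, an isoform of the membrane-bound a subunit, had 4442 against 1258 (1.82, 1.73 to 1.91), and Atp6v0a4, the isoform known from kidney, had 106.8 against 7.28 (3.79, 2.84 to 5.12). With total-read scaling the list had 6 higher and 1 lower, where 11.3% and 23.1% of all genes were. With the keratin scaling it had 3 and 3, where 5.59% and 39.9% of all genes were.

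Other lysosomal membrane proteins had 6 of 34 measured called higher (17.6%, near the 14.5% of all genes) and 1 lower (2.94%, against 19.4%), and the median ratio was 0.28. The lower gene was Laptm5, given above, and the relatives of Mcoln1 had the highest ratios. Mcoln2 had 2824 normalised counts in label-retaining cells, against 422 in non-retaining cells (2.74, 2.60 to 2.89), and Mcoln3 had 1395 against 214 (2.70, 2.51 to 2.91), both calcium-permeable channels of endosomes and lysosomes. Mcoln1 over Mcoln3 was 0.380 per kilobase in label-retaining cells, against 1.54 in non-retaining cells (log2 difference -2.02, -2.26 to -1.78). Ctns, the cystine exporter cystinosin, had 5208 against 1206 (2.11, 2.02 to 2.20). Laptm4a, the most abundant of the list, had 14797 against 16205 (-0.13, -0.16 to -0.10). The keratin scaling gave 3 higher and 6 lower (5.59% and 39.9% of all genes). Mcoln2, Mcoln3 and Ctns were still called higher, at 1.98, 1.94 and 1.35.

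Genes that dock mTORC1 at the lysosome or control TFEB had 4 of 25 called higher (16.0%, near the 14.5% of all genes) and 0 lower (19.4% of all), and the median was 0.29. Tfec, a relative of TFEB, had 107.8 normalised counts in label-retaining cells, against 12.7 in non-retaining cells (3.03, 2.27 to 4.0), and Mitf, another relative, had 599 against 206 (1.53, 1.31 to 1.76). Tfeb and Tfe3 were not among the called genes. Rragd, a Rag GTPase of the docking complex, had 1768 against 412 (2.1, 1.95 to 2.25), and Fnip1, the most abundant of the list, had 7360.4 against 4677 (0.65, 0.60 to 0.71). The split was 3 higher and 1 lower with total-read scaling (11.3% and 23.1% of all genes). It was 2 and 4 with the keratin scaling (5.59% and 39.9%).

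Autophagy genes had 5 of 30 called higher (16.7%, near the 14.5% of all genes) and 0 lower (19.4% of all), and the median was 0.40, with 26 positive ratios. Sqstm1, the cargo receptor p62, was the most abundant with 88148 normalised counts in label-retaining cells, against 34250 in non-retaining cells (1.36, 1.35 to 1.38). Atg13, a subunit of the initiating kinase complex, had 2558 against 691 (1.89, 1.77 to 2.01), and Wipi1, which binds the forming membrane, had 1952 against 680.4 (1.52, 1.40 to 1.64). The split was 4 higher and 1 lower with total-read scaling (11.3% and 23.1% of all genes). It was 1 and 3 with the keratin scaling (5.59% and 39.9%).

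Of the machinery that tags and sorts the enzymes, 1 of 21 genes was called higher (4.76%, against 14.5% of all genes) and 0 lower (19.4% of all), and the median was 0.41. Ap1m2, an epithelial subunit of the AP-1 adaptor, had 2905 normalised counts in label-retaining cells, against 1177 in non-retaining cells (1.30, 1.21 to 1.40). Igf2r, the large mannose 6-phosphate receptor and the most abundant gene of the list, had 17042 against 16911, level within counting error (0.01, -0.02 to 0.04). The keratin scaling gave 0 higher and 3 lower (5.59% and 39.9% of all genes). Of 5 measured cystatins, Cst6 was called higher from few reads, 23 label-retaining against 12 non-retaining, and Cst7 lower as given above. The call of Cst6 ended with a pseudocount of 5 (0.81), with total-read scaling (0.84) and with the keratin scaling (0.30). Of the other genes named from these lists, Naglu, Fuca1, Creg1, Ppt1, Ap1m2, Mitf, Sqstm1 and Wipi1 were no longer called under the keratin scaling, with ratios between 0.47 (Ppt1) and 0.79 (Naglu). Cst3, the most abundant, had 18060 against 14222 (0.34, 0.31 to 0.38).

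**Figure D4:**
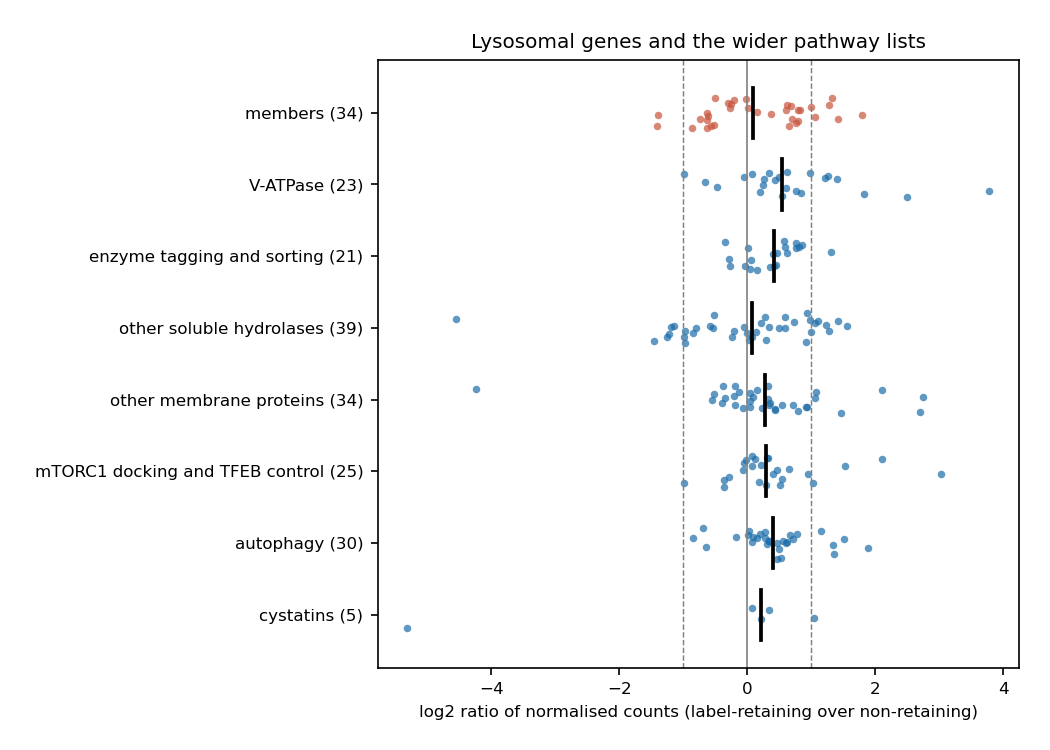
Log2 ratio, label-retaining over non-retaining, of every measured gene in the 34 members and 7 wider lists (number of genes in brackets). Vertical bars are medians, the solid grey line is the median of all measured genes and dashed lines mark 2-fold. The V-ATPase median is 0.54 and that of the members 0.09.

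Members were also split by the E-box in their promoters. The 8 members with TCACGTG had a median log2 ratio of 0.62, with 7 positive, 1 called higher and 0 lower. The 22 matched members without it had a median of -0.26, with 9 positive, 4 called higher and 2 lower. Lgmn was the exception among the 8, at -0.61. Ctsa and Lgmn hold the motif only in the window farther from the start of the GENCODE gene. Among all measured genes with a promoter window, the 771 with TCACGTG had a median of 0.12, with 433 positive, 98 called higher and 97 lower. The 11047 without it had a median of 0.02, with 5618 positive, 1625 called higher and 2114 lower. Of the 5 members called higher, Glb1 alone held the motif in its window. The split was smaller for the core CACGTG, which Ctsf (-0.31) and Ctsl (-1.41) also hold. The 10 members with the core had a median of 0.49, with 7 positive, 1 called higher and 1 lower. The 20 matched members without the core had a median of -0.14, with 9 positive, 4 called higher and 1 lower. Among all measured genes, the 1313 with the core had a median of 0.09 and the 10505 without it 0.02. Under the keratin scaling every ratio moved down by 0.76, which put 7 of the 8 members with TCACGTG below 0 and left Glb1 above. The median of all measured genes moved as well, to -0.77, and of the 8 Lgmn alone lay below it (-1.37).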

How the data were processed

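The deposited values are a signal made by the authors from read counts per gene, each library scaled by its own size factor. The values show it: 100% in each column are whole multiples of a constant, within 1e-06 of a read. Tools named by the submitters' processing notes, without roles, are DESeq 1.16.0, HTSeq 0.6.0, TopHat2 2.0.10, Bowtie2 2.1.0 and CASAVA 1.8.2, and the build is mm10. The sources used here give neither the annotation, the strand setting nor the treatment of shared reads. Per the labels' protocols, total RNA went into a stranded total RNA kit.

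Reads were recovered by dividing by the step, with size factors of 1.00 (label-retaining) and 1.10 (non-retaining). Symbols, positions and exon lengths came from GENCODE M21 on GRCm38, which is mm10, by gene identifier without version (18634 matched, 90 did not). Exons of 12 members overlap another gene, 3 of them on the same strand. Log2 ratios used a pseudocount of 0.5 and the size rule a minimum mean of 10 normalised counts. Intervals of pair ratios came from the normal approximation to the log of counts. No molecular identifiers are named, so intervals cover counting error only. A count test needs replicates and was not run. Calculations were tested on simulated counts, in Python 3.11.15 with numpy 2.4.6, pandas 2.3.3, scipy 1.17.1 and matplotlib 3.10.9. Promoters came from RefSeq (GRCm38.p6).

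Members and lists were chosen with earlier results of these data known. Every member is named. From each wider list the text names up to 3 called genes per direction, by the interval bound nearest to equality, and the most abundant gene, from each marker list the most abundant. Some genes that the rule names are not reported here. In wider and marker lists, most abundant means by normalised counts, not per length. Gzma, Cd163, Svs3a, Svs6 and the genes that overlap a member were named outside this rule after their values were seen.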

Additional observations from a re-analysis of the deposited data

How the results depend on the processing

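The counts of members called kept to 4 to 6 higher and 2 or 3 lower under scaling to total reads, median-of-ratios factors, total reads without the 20 most abundant genes of either library, a pseudocount of 5, no filter and a minimum of 100. With the keratin scaling 1 member was higher, 14 were lower and the median was -0.68. The median of all genes was then -0.77, with 960 higher and 6854 lower, and it was -0.21 with total reads and 0.067 without the 20 most abundant genes. Each scaling moves all genes together, and the distance of the members' median from that of all genes stayed at 0.09 under these scalings. A minimum of 100 left 1599 higher and 2009 lower of all genes (median 0.039). A minimum of 1000, chosen after seeing the data, left 829 and 835 (median 0.057) and 1 lower member, because Ctss is below it. A 1.5-fold rule called 15 members higher and 8 lower, and 4151 of all genes higher. A 4-fold rule called 0 and 0 members, and 742 and 1656 of all genes. Of the 7 called members, 3 kept their call under the keratin scaling and 6 under total reads. Leaving out a library was not possible with 1 per group. No paired analysis was possible either, for the same reason. Depth limited Ctss most, with a log2 interval of 0.284 either way, and Ctsd least (0.0227).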
